A study of Mus musculus with 6 samples.

Results

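Open chromatin was described around Glo1 on mouse chromosome 17, in a window of 900 kb at chr17:30200000-31100000 (GRCm38) that also holds Btbd9, Dnah8 and Glp1r. The regions were the peaks that passed the irreproducible discovery rate (IDR, a filter on agreement between replicates) in WT or Pbrm1 cKO cells, merged where they overlapped. A region was assigned to a gene when it lay within 10 kb of the gene body. Of 66679 merged regions in the genome, 29 lay in the window and 26 belonged to the 4 genes. Btbd9 had 13 of them, Glo1 had 7, Dnah8 had 8 and Glp1r had 1, and 3 regions counted for both Btbd9 and Glo1. The window was selected on the rank of its regions, since neighbouring regions in it ranked lower in Pbrm1 cKO than in WT libraries, so differences between the genotypes here are a description, with no test.

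Glo1 encodes glyoxalase I, the glutathione-dependent enzyme that takes up methylglyoxal, a reactive by-product of glycolysis, and passes it on to glyoxalase II for conversion to lactate. Dnah8 encodes an axonemal dynein heavy chain, a motor of cilia and sperm tails. Glp1r encodes the receptor for the incretin hormone GLP-1, and Btbd9 a BTB-domain protein of the kind that can bring substrates to cullin 3 ubiquitin ligases. The genes share no pathway and are linked here by position. In some inbred mouse strains a segment holding Glo1 and neighbouring genes is duplicated, as background.

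The cells were primary smooth muscle cells of the oviduct from mice 8 to 12 weeks old on day 2 of pregnancy, plated for a few hours before the assay. There were 3 libraries labelled WT and 3 labelled Pbrm1 cKO. Per the study's methods, Pbrm1 cKO mice carried floxed Pbrm1 (Pbrm1 fl/fl) and PR-IRES-cre, a Cre driven by the progesterone receptor promoter in PR-positive cells, and controls were Pbrm1 fl/fl littermates without Cre, so the WT label here may stand for floxed mice. PBRM1 is the bromodomain subunit of PBAF, a SWI/SNF complex that moves nucleosomes. The study's methods name the stock line of the Cre mice. The strain background of the mice behind these libraries, and whether animals were pooled for a library, are not given in the sources used here. The study's supplement calls the 3 replicates of these cells biological. P-values below measure only the spread between these libraries, and whether each came from a separate animal is not given.

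Accessibility was read as a rank. In each library, all 66679 regions were ordered by the best −log10 p of the peak caller's entries over them, and the rank score is log2(66679 / rank). The score is 0 for the weakest region, about 1 for the middle of the list, and rises by 1 each time the rank number is divided by 2. No total read count was given. The fold and the p of an entry together gave the tags (transposase cuts) over its summit, with a median of 14, 13 and 8 tags in WT libraries 1, 2 and 3 and 15, 13 and 14 in Pbrm1 cKO libraries 1, 2 and 3. WT library 3 had the fewest tags at a median summit and the lowest median fold, 3.61. Its genome-wide mean background, 1.13 tags, was not the lowest, with 1.05 in Pbrm1 cKO library 2. Its low tags may therefore not reflect depth, and tags were compared only beside ranks.

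Smooth muscle identity was checked by promoter regions. All 5 smooth muscle genes (Acta2, Myh11, Cnn1, Tagln, Des) had one. Of 6 epithelial genes only Foxj1, the regulator of motile cilia, did. Its score, 3.89 ± 0.29 for WT and 4.14 ± 0.81 for Pbrm1 cKO (SD, n = 3 per genotype), was above those of the smooth muscle promoters. The Epcam, Krt8, Krt18, Pax8 and Ovgp1 promoters had no region. Both endothelial genes and 1 of 2 immune genes (Cd68, not Ptprc) had a promoter region, and the summed scores of each of these lists overlapped between genotypes. The fibroblast genes Pdgfra and Dcn had 5 promoter regions, with means higher in Pbrm1 cKO in 5 of 5. Their summed score ran from 1.68 to 3.04 in WT and from 3.65 to 4.32 in Pbrm1 cKO libraries, without overlap. None of the 5 passed limma (lowest Benjamini-Hochberg adjusted p = 0.196), and their part in the values at this locus was not tested. The promoter region of Pbrm1 itself differed by 0.07 ± 0.37 (limma SE), which says nothing of the deletion.

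The sequences below are shown because each lies in a region the results turn on, 1 for each gene. Each is 160 bases of GRCm38.p6 from RefSeq on the gene's own strand, and capitals mark the matches to the motifs searched. The Glo1 stretch begins at the start codon in the first exon and runs into the first intron (chr17:30612392-30612551, minus strand), inside the strongest region of the locus. Its capitals, in the intron, are a match to TGACNNNGC, the core of the antioxidant response element. The match lies outside the 300 bases around the summit used for the motif counts below, which give 0 such matches for this region. The Btbd9 stretch is intronic (chr17:30438889-30439048, minus strand), in the region that stood highest in Pbrm1 cKO relative to WT. The Dnah8 stretch is intronic to the coding transcripts (chr17:30846464-30846623, plus strand) and lies in the region with the largest drop. The Glp1r stretch is intronic (chr17:30910961-30911120, plus strand), in the gene's single region. Their capitals mark the NFI half-site TTGGCA and, in Dnah8, also CATTCC, the MCAT motif bound by TEAD factors.
Glo1: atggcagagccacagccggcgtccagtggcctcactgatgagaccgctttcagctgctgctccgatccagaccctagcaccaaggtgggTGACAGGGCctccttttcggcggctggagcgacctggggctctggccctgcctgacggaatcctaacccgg
Btbd9: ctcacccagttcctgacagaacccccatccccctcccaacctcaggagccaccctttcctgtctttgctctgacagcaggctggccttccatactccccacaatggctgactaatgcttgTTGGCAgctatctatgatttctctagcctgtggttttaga
Dnah8: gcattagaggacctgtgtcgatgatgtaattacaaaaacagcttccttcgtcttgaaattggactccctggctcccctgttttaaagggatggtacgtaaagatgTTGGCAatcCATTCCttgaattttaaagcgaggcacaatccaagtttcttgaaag
Glp1r: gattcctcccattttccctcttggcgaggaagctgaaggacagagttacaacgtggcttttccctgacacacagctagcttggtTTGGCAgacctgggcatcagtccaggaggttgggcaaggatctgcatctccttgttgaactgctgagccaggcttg

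Across the 4 genes, 18 of 26 regions had a lower mean rank score in Pbrm1 cKO, where 50.0% of all regions did. The median difference was -0.24, against 0.00055 over all 66679 regions. In 13 regions every Pbrm1 cKO library was below every WT library, where 10.9% of all regions were, and in 3 regions every Pbrm1 cKO library was above every WT library, where 10.6% of all regions were. The 13 include a region with an entry in WT library 1 alone (chr17:30575771-30575854), whose rank in the other libraries was tied at the end of the list. No region of the 4 genes passed limma at an adjusted p under 0.05, a call made for 0.0675% of all regions. At an unadjusted p under 0.05 there were 9, where 15.9% of all regions were called. Of these, 7 were lower and 2 higher, where 8.37% and 7.51% of all regions were. With normal scores of the ranks 0 passed after adjustment, against 2.33% of all regions, and 12 before it, against 17.1%. The run was uneven. The strongest promoter regions of Glo1 and Btbd9 overlapped between genotypes while 1 weaker region beside each did not and was lower, a cluster in a Btbd9 intron was higher, and the lower part, broken at 1 region, ran from near the start of Dnah8 through Glp1r to the start of Abcg1. In such bulk samples, fewer cells of a type and less accessibility per cell cannot be told apart.

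**Figure D1:**
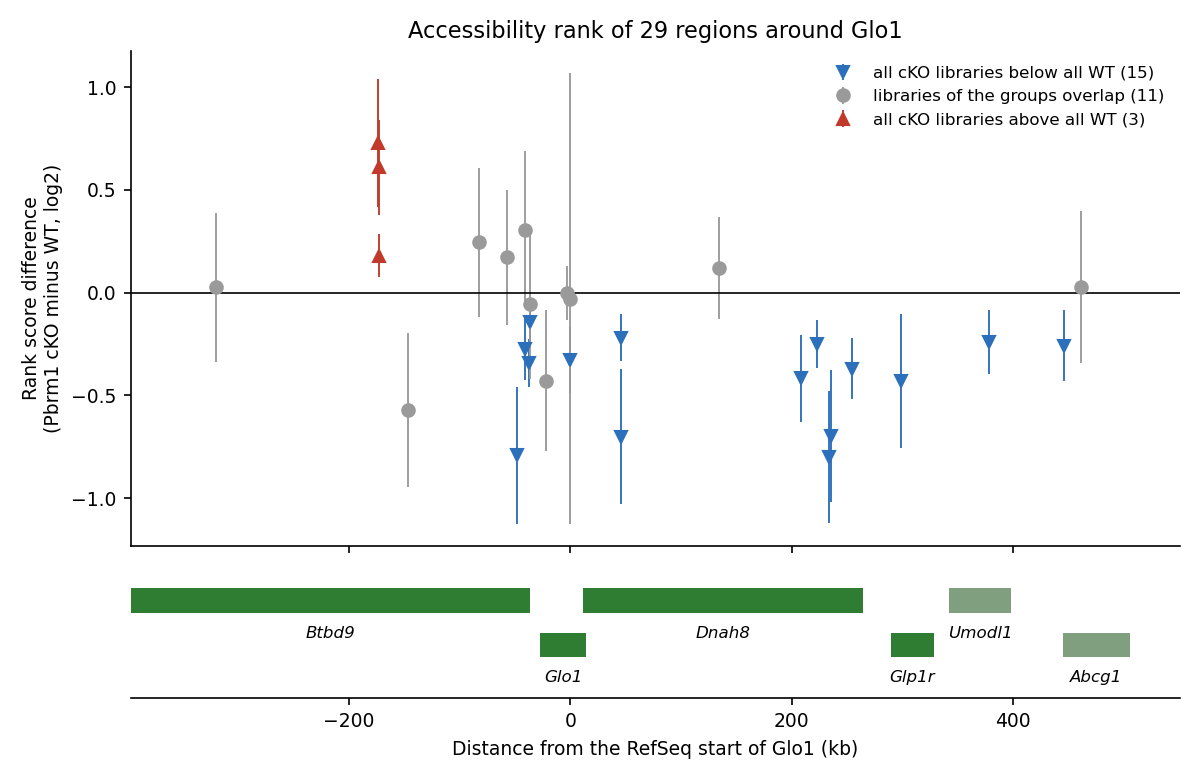
Difference in rank score (Pbrm1 cKO minus WT, log2 scale) of the 29 regions of the window against their distance in kb from the RefSeq start of Glo1, with limma standard errors (3 libraries per group) and gene bodies below. Blue triangles (15) are regions where every Pbrm1 cKO library was below every WT library, red triangles (3) the converse and grey circles (11) the rest. The blue triangles include a region with an entry in WT library 1 alone (chr17:30575771-30575854), with tied ranks in the other libraries. The red triangles sit together in Btbd9, and from Dnah8 to the start of Abcg1 all symbols but 1 grey circle are blue.

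The Glo1 promoter region (chr17:30612266-30612822) was among the strongest of the genome. It ranked 477, 77 and 2164 in WT libraries 1, 2 and 3 and 815, 234 and 443 in Pbrm1 cKO libraries 1, 2 and 3. The rank scores were 7.28 ± 2.41 in WT and 7.25 ± 0.90 in Pbrm1 cKO (SD, n = 3 each), a difference of -0.03 ± 1.10 (SE), and the libraries overlapped. Its summit held 147, 149 and 69 tags in WT and 143, 145 and 143 tags in Pbrm1 cKO. The low value was that of WT library 3, which had the fewest tags at a median summit. Without that library the difference was -1.19, and without WT library 2 it was 1.21, so its direction rests on single libraries.

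Of the other regions inside Glo1, 3 are described here. A region just inside the gene from the promoter (chr17:30611920-30612211) scored 0.71, 0.51 and 0.40 in WT and 0.33, 0.12 and 0.19 in Pbrm1 cKO, so that the groups did not overlap. A region within the gene body, at the start of the noncoding transcript AC165962.3 (chr17:30590498-30591393), had the largest difference of the Glo1 set, -0.43 ± 0.34 (SE). Its scores were 0.99, 0.76 and 2.03 in WT and 0.90, 0.92 and 0.66 in Pbrm1 cKO, and they overlapped, with WT library 3 the high one. Without that library the difference was -0.045. An intronic region (chr17:30609353-30609610) differed by -0.0020 ± 0.13. All 7 regions assigned to Glo1 had a negative difference, with a median of -0.14, and 3 of them lie at the Btbd9 promoter. That median is the value of a region at the Btbd9 promoter (chr17:30575771-30575854) with an entry in WT library 1 alone.

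The Btbd9 promoter region (chr17:30575959-30576923) scored 3.22, 3.08 and 3.54 in WT and 3.24, 3.44 and 3.00 in Pbrm1 cKO. The groups overlapped and differed by -0.05 ± 0.36 (SE). On its edge, a small region (chr17:30575552-30575707) scored 0.40, 0.45 and 0.29 in WT and 0.03, 0.02 and 0.06 in Pbrm1 cKO, without overlap. Its summits held 29, 27 and 14 tags in WT and 16, 14 and 16 tags in Pbrm1 cKO libraries. The neighbour between the previous 2 (chr17:30575771-30575854) had an entry in WT library 1 alone. It counted as lower without overlap only through ranks tied at the end of the other lists. Both small regions were in the WT IDR list only.

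Inside Btbd9 the regions moved both ways. An intronic region (chr17:30438785-30439317) scored 1.11, 0.91 and 1.30 in WT and 1.90, 1.81 and 1.79 in Pbrm1 cKO, a difference of 0.73 ± 0.31 (SE) and the largest increase of the window. Its summit held 26, 21 and 16 tags in WT and 47, 37 and 39 tags in Pbrm1 cKO. Every Pbrm1 cKO library was above every WT library on both scales. The next region (chr17:30439456-30439731) had scores of at most 0.07 in WT and from 0.15 to 0.32 in Pbrm1 cKO, and WT library 3 had no entry there. The last of the cluster (chr17:30439784-30440153) scored 0.07, 0.27 and 0.59 in WT and 0.68, 1.09 and 0.99 in Pbrm1 cKO. These 2 neighbours were in the Pbrm1 cKO IDR list only, and the 3 regions together span less than 2 kb, so they are not separate evidence.

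Nearer to the Btbd9 start, an intronic region (chr17:30564382-30564946) scored 1.45, 2.17 and 1.31 in WT and 1.09, 0.56 and 0.91 in Pbrm1 cKO. The groups did not overlap, and the difference of -0.79 ± 0.33 (SE) was the largest in Btbd9. Its tags, 32, 39 and 16 in WT and 28, 16 and 22 in Pbrm1 cKO, overlapped, with the low WT value in library 3. At internal Btbd9 starts, regions at chr17:30292122-30293217 and chr17:30571061-30571304 differed by 0.03 ± 0.36 and 0.31 ± 0.38, with overlapping groups, and the region at chr17:30571374-30571539 by -0.27 ± 0.15, without overlap. The strongest region inside the gene, in an intron (chr17:30464925-30465919), scored 3.30, 3.63 and 2.79 in WT and 2.46, 2.44 and 3.10 in Pbrm1 cKO, with overlap. An exonic and an intronic region (chr17:30529859-30530557 and chr17:30554957-30555719) differed by 0.25 ± 0.36 and 0.17 ± 0.33, with overlap. Over the 13 Btbd9 regions, 6 were lower and 7 higher, and the median difference was 0.03.

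**Figure D2:**
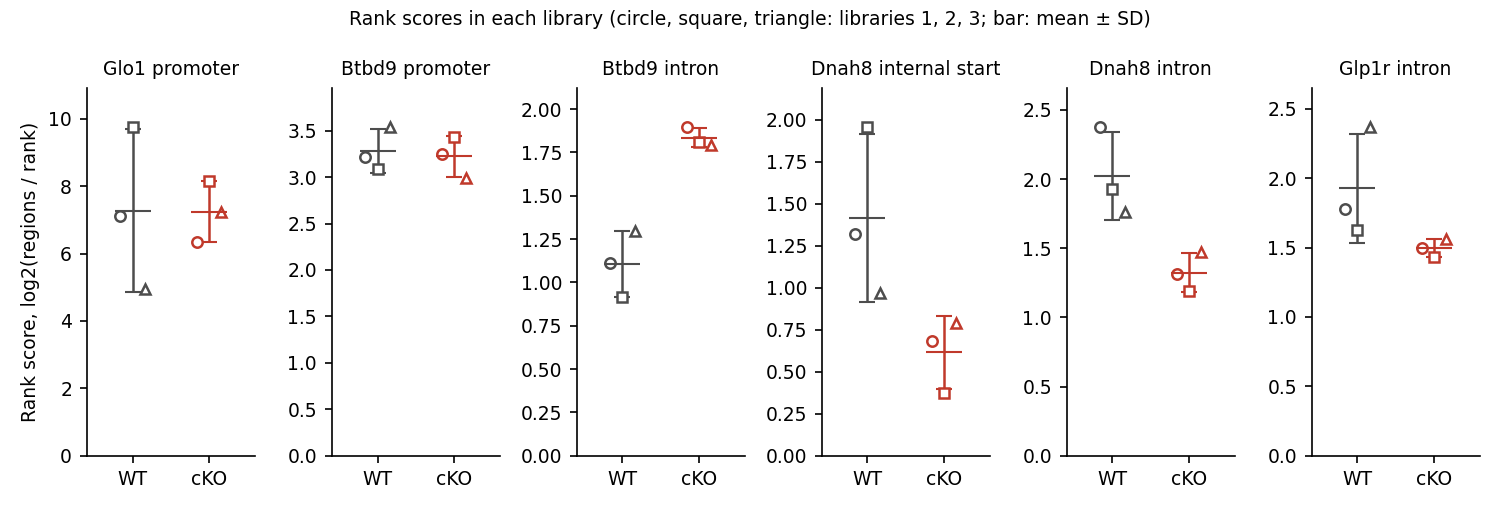
Rank scores, log2(66679 / rank), of 6 regions in each library, on separate axes that start at 0, with bars for the mean and SD (n = 3 per group). The Glo1 and Btbd9 promoter regions overlap between WT and Pbrm1 cKO, the Btbd9 intron region is higher in every Pbrm1 cKO library, and both Dnah8 regions and the Glp1r region are lower in every Pbrm1 cKO library.

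In Dnah8, 7 of 8 regions were lower in Pbrm1 cKO, as were 50.0% of all regions, and all 7 without overlap of the groups, as were 10.9% of all regions, with a median difference of -0.39 over the 8. The largest difference lay far inside the gene (chr17:30846207-30846869), at the annotated start of a Dnah8 transcript of the retained-intron class. It scored 1.32, 1.96 and 0.97 in WT and 0.68, 0.37 and 0.79 in Pbrm1 cKO, a difference of -0.80 ± 0.32 (SE). Its summit held 41, 48 and 17 tags in WT and 27, 20 and 26 tags in Pbrm1 cKO. The tags of WT libraries 1 and 2 were above all Pbrm1 cKO libraries and those of WT library 3 were below them.

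The strongest Dnah8 region was its intronic neighbour (chr17:30847479-30847881). It scored 2.38, 1.93 and 1.76 in WT and 1.31, 1.19 and 1.47 in Pbrm1 cKO, a difference of -0.70 ± 0.32 (SE). The tags were 60, 47 and 24 in WT and 37, 30 and 36 in Pbrm1 cKO. An exonic region nearer the start (chr17:30657981-30658366) scored 1.81, 1.46 and 1.74 in WT and 0.46, 1.15 and 1.29 in Pbrm1 cKO, a difference of -0.70 ± 0.33. Here WT library 3, with 20 tags, lay among the Pbrm1 cKO libraries with 17, 22 and 25 tags.

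The other lower Dnah8 regions were weak, with mean WT scores from 0.28 to 0.70 and differences from -0.42 to -0.22. Of them, those at chr17:30658415-30658548, chr17:30835403-30835700 and chr17:30866729-30867094 were in the WT IDR list only. The exception was an intronic region in the Pbrm1 cKO IDR list only (chr17:30746383-30746553), at 0.97, 0.08 and 0.03 in WT and 0.30, 0.97 and 0.17 in Pbrm1 cKO, with no entry in WT library 3. Its libraries scattered from the bottom to near the middle of the list in both genotypes. At the RefSeq start of Dnah8 there was no merged region within 1 kb. The only entry there, in WT library 3, held 6 tags.

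Glp1r had 1 region, in an intron (chr17:30910693-30911571). It scored 1.78, 1.63 and 2.37 in WT and 1.50, 1.43 and 1.56 in Pbrm1 cKO, a difference of -0.43 ± 0.33 (SE), and all WT libraries were above all Pbrm1 cKO libraries. The margin between the lowest WT library and the highest Pbrm1 cKO library was small, and the tags, 43, 35 and 31 in WT and 40, 32 and 34 in Pbrm1 cKO, overlapped. Without WT library 3 the difference was -0.21. At the RefSeq start of Glp1r no merged region was found, but every library had weak entries within 1 kb. The best of these held 15, 10 and 7 tags in WT and 11, 10 and 9 tags in Pbrm1 cKO. The median tag number of a listed summit was in the same range, so these entries were ordinary for the relaxed lists.

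Beyond Glp1r, the intronic region of Umodl1 (chr17:30990324-30990526) differed by -0.24 ± 0.15 and the promoter region of Abcg1 (chr17:31058598-31059178) by -0.26 ± 0.17 (SE), both without overlap. Abcg1 encodes a cholesterol exporter. The next region, in an Abcg1 intron (chr17:31073474-31074513), differed by 0.03 ± 0.37, with overlap. From the first Dnah8 region to the Abcg1 promoter, 11 regions over 401 kb (chr17:30657981-31059178) held 10 lower ones without overlap, where 10.9% of all regions were, with a median of -0.37. Ranked by fold there were 5. These ends were set after the values were seen. The 17 regions of the 4 genes outside this stretch had a median of -0.03, with 10 lower and 7 higher.

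The neighbouring 900 kb on either side had medians close to that of all regions. On the Zfand3 side, the median difference of 59 regions was -0.07. There 6 (10.2%) were lower and 5 (8.47%) higher without overlap, against 10.9% and 10.6% of all regions. On the Abcg1 side, the median of 45 regions was 0.0049, and 3 (6.67%) were lower and 6 (13.3%) higher without overlap. Just outside the window, the nearest regions differed by -0.38 ± 0.23 at Zfand3 (chr17:30196889-30197271) and 0.25 ± 0.21 beyond Abcg1 (chr17:31119547-31119751), both with overlapping groups. Chromosome 17 as a whole had a median of 0.00055 over 2861 regions.

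**Figure D3:**
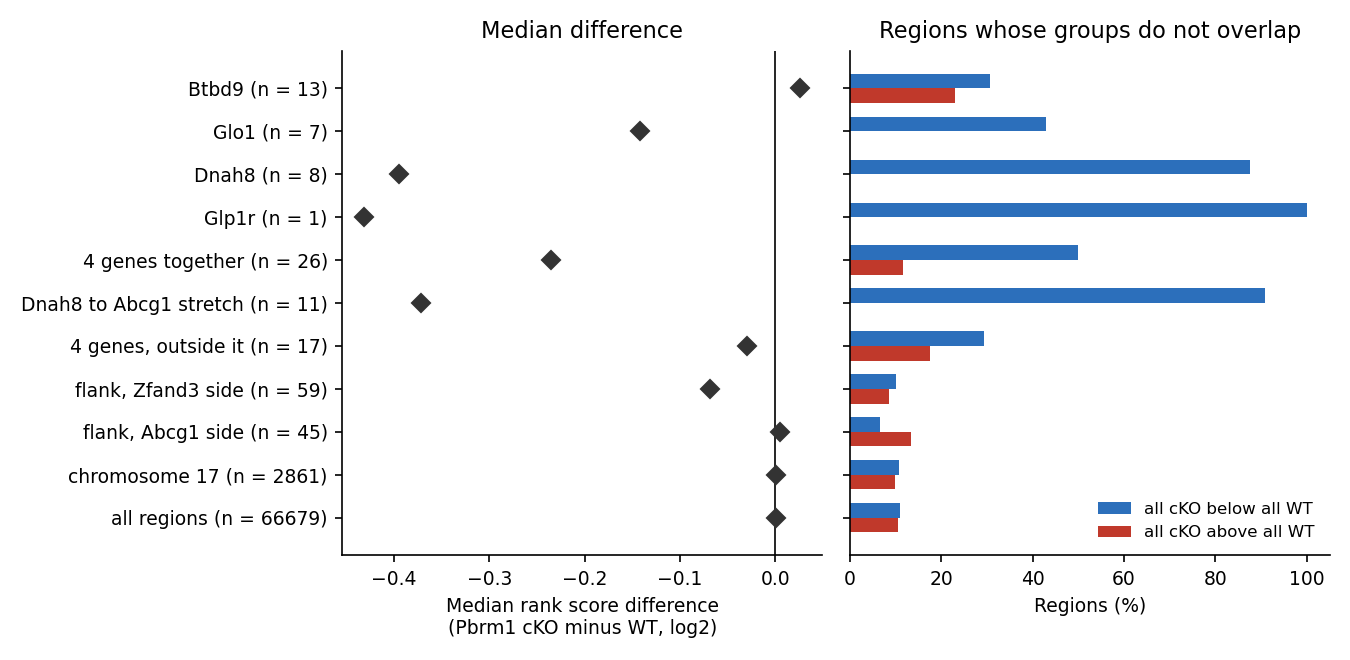
Left, the median rank score difference (Pbrm1 cKO minus WT, log2 scale) of each gene's regions, the Dnah8 to Abcg1 stretch, the flanks of 900 kb, chromosome 17 and all regions. Right, the percent of regions in which every Pbrm1 cKO library was below (blue) or above (red) every WT library, 10.9% and 10.6% over all regions. Dnah8 and Glp1r have the lowest medians, and Btbd9 and both flanks lie near 0.

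The lists of single libraries held weaker entries between the regions. In the window there were 173, 166 and 182 entries in WT and 173, 159 and 166 in Pbrm1 cKO libraries, which overlapped. In Dnah8 there were 28, 31 and 49 entries in WT and 24, 28 and 26 in Pbrm1 cKO, and the 49 came from WT library 3. Glo1 had 25, 22 and 25 entries in WT and 22, 19 and 23 in Pbrm1 cKO. Glp1r had from 5 to 13 and Btbd9 from 79 to 95, with overlap. Among entries with a −log10 q of at least 2 in the window, WT libraries had 147, 131 and 88 and Pbrm1 cKO libraries 151, 132 and 132, so the order of the means turned. WT library 3 gave the lowest of these counts and the highest of all entries.

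The caller also sets each entry against a local background, the tags counted over the surrounding sequence, which cannot fall below the library's genome-wide mean. In Dnah8, 25.0%, 32.3% and 42.9% of entries stood at that floor in WT libraries and 62.5%, 64.3% and 65.4% in Pbrm1 cKO libraries. The groups did not overlap there. In the Dnah8 to Abcg1 stretch the shares were 31.4%, 35.6% and 44.1% in WT and 57.1%, 53.8% and 56.8% in Pbrm1 cKO. The flank on the Abcg1 side, where the regions were not lower, also had more entries at the floor in every Pbrm1 cKO library, 40.7%, 37.1% and 35.8% against 26.1%, 31.2% and 33.2%. On the Zfand3 side the shares overlapped, with 16.2%, 18.0% and 29.3% in WT and 18.1%, 14.6% and 15.1% in Pbrm1 cKO.

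Relative to the genome-wide mean, the median background of the window's entries was 1.33 ± 0.23 in WT and 1.34 ± 0.08 in Pbrm1 cKO (SD). That of the entries in both flanks was 1.52 ± 0.27 and 1.66 ± 0.06, so the flanks and not the window differed in mean. Set against the flanks of the same library, the window's median background was 0.893, 0.838 and 0.897 in WT and 0.855, 0.774 and 0.785 in Pbrm1 cKO, which overlapped. With entries at a −log10 q of at least 2 it was 0.876, 0.816 and 0.879 in WT and 0.951, 0.832 and 0.801 in Pbrm1 cKO, which overlapped. In bins of 50 kb, the ratio of mean background in Pbrm1 cKO to WT had a median of 0.993 over the 17 bins with entries in all 6 libraries, and also over the 7 such bins of the stretch. Because many bins stood at the floor in every library, a lower background there would not be visible. DNA copy number was not measured, and its part in the lower ranks was not tested.

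**Figure D4:**
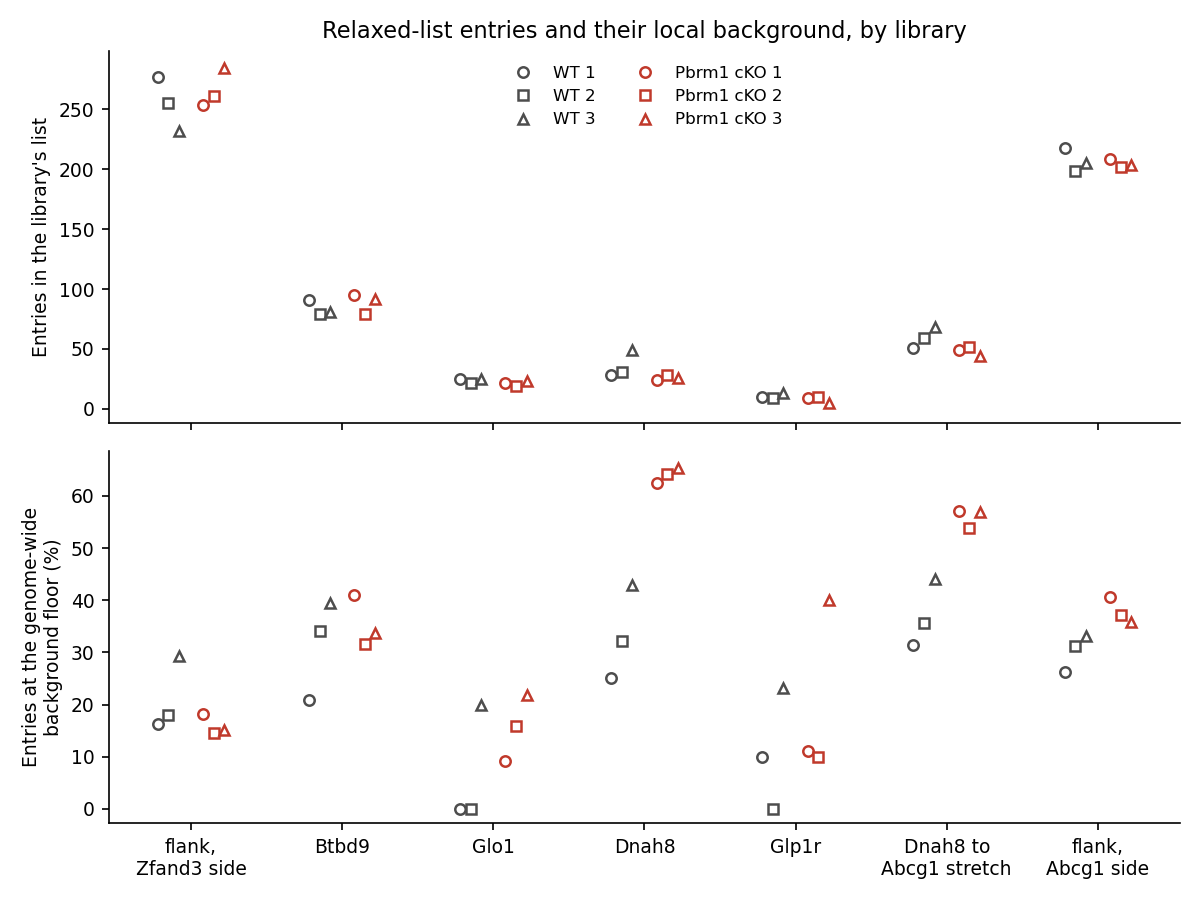
Number of relaxed-list entries (top) and percent of entries whose local background stood at the genome-wide floor (bottom) in each library, for the flanks, the 4 genes and the Dnah8 to Abcg1 stretch. Circles, squares and triangles are libraries 1, 2 and 3. In Dnah8 the percent at the floor is 25.0 to 42.9 in WT and 62.5 to 65.4 in Pbrm1 cKO libraries, while the entry numbers overlap.

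The regions were ordinary in sequence. Their median GC content in the window was 49.5%, against 50.3% over all regions, and the median share of repeat-masked bases was 4.26% against 7.26%. No region of the window had a near-identical copy elsewhere in the reference (at least 90% identity over 80% of its length). Motifs were searched on both strands in the 300 bases around the summit of the strongest IDR entry in each region. The AP-1 motif TGANTCA was present in 12 of 29 regions (41.4%), against 36.6% of all regions. The NFI half-site was present in 9 (31.0%), against 18.0%, the antioxidant response element core in 4 (13.8%), against 16.8%, and the MCAT motif in 5 (17.2%), against 20.7%. The E-box CATCTG was present in 8 (27.6%), against 22.1%, and the CArG box, bound by SRF, in 1 (3.45%), against 1.70%. The CTCF core motif was in 0 of 29, against 5.27% of all regions, and no match says only that those letters were not in the windows searched.

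Other genes of the same pathways were read by their promoter regions. The counts leave out the 4 genes of the locus. Over all regions, 50.0% were lower in Pbrm1 cKO and 0.0675% passed limma after adjustment. In methylglyoxal handling, 9 of 10 other genes had one, Ager being without, and of 12 regions 7 were lower, 5 higher and 0 passed limma. Akr1b3, an aldose reductase, had scores of 6.06, 5.32 and 6.10 in WT and 4.35, 4.76 and 4.79 in Pbrm1 cKO, a difference of -1.19 ± 0.52 (SE, limma adjusted p = 0.274). Its groups did not overlap. Hagh, which encodes glyoxalase II, the partner of the Glo1 product, scored 5.09 ± 0.73 in WT and 4.87 ± 0.81 in Pbrm1 cKO at its stronger region, with overlap.

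Among receptors for incretins and related peptides, 6 of 7 other genes had a promoter region, and of 7 regions 5 were lower, 2 higher and 0 passed. Sctr, the secretin receptor gene, had scores of 0.34, 0.29 and 0.36 in WT and 0.02, 0.02 and 0.03 in Pbrm1 cKO (difference -0.31 ± 0.11, SE, limma adjusted p = 0.179). With normal scores its region was the 1 of 7 that passed, where 2.33% of all regions were called. Neither Glp1r nor Gcgr had a promoter region. Of axonemal dynein heavy chain genes, 7 of 14 others had one, and of 9 regions 7 were lower, 2 higher and 0 passed. Dnah11 scored 2.47 ± 0.25 in WT and 1.52 ± 0.30 in Pbrm1 cKO (limma adjusted p = 0.177). Dnah6 scored 3.88 ± 0.06 and 4.65 ± 0.57 at its stronger region (limma adjusted p = 0.412). At its weaker region Dnah6 went the other way, 0.72 ± 0.21 and 0.50 ± 0.54, with overlap. All 10 other genes of BTB proteins and cullin 3 partners had promoter regions, and of 15 regions 10 were lower, 5 higher and 0 passed.

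The median profile of the 26 regions was 0.84, 1.02 and 0.69 in WT and 0.68, 0.83 and 0.73 in Pbrm1 cKO libraries, with WT library 2 highest. Among 10919 promoter regions of protein-coding genes over 2 Mb away that differed at least as much, those with the most similar profile over the 6 libraries were Tpm2 (Pearson r = 0.991), Lmnb1 (0.977), Scarb1 (0.975), Wdr5 (0.973) and Minos1 (0.972). Tpm2 encodes a muscle tropomyosin, Lmnb1 a nuclear lamin, Scarb1 a lipoprotein receptor, Wdr5 a subunit of histone methyltransferase complexes and Minos1 a protein of mitochondrial cristae. With 6 libraries that all regions share, such likeness is a description.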

How the data were processed

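Chromatin accessibility (ATAC-seq) was measured in 3 WT and 3 Pbrm1 cKO libraries. Per the study's methods, the authors used the ENCODE ATAC-seq pipeline on GRCm38, and the labels name cutadapt, Bowtie2 and MACS2. The authors deposited a relaxed peak list per library (p of 0.01, at most 300000 entries) and a conservative IDR list (0.05) per genotype. Which replicates entered each IDR list is not given in the sources used here. Each deposited entry holds a fold (a ratio of summit over background), a −log10 p and, in relaxed lists, a −log10 q, and the deposited score is a rescaled value that was not used here.

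IDR lists were merged by overlap of at least 1 bp, and each library then ordered the regions by −log10 p, the best entry counting. Regions without an entry were tied at the end. The fit to log2(66679 / rank) over all regions used limma 3.58.1 (lmFit, eBayes with trend, R 4.3.3), two-sided, with Benjamini-Hochberg adjustment. Tags and background were solved from fold and p (whole numbers within 0.01 in nearly all entries). Scripts were tested on simulated data. Genes came from GENCODE M21 and sequences from RefSeq GRCm38.p6, with copies sought by blastn 2.17.0. Replicates are separate samples per the labels and biological replicates per the study's supplement.

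Named regions were, for each gene, those within 1 kb of a start, the best ranked and the most different, with others named after their values were seen. Members and lists were chosen with earlier results of these data known. Alternatives were other scales, ranked values, region sets and overlaps, a replicate block and leaving out libraries. A rank cannot show a change shared by a whole library, and depth is known only through tags and the genome-wide background.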

Additional observations from a re-analysis of the deposited data

How the results depend on the processing

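Over 7 summaries and 13 named regions, 232 alternative values were computed, of which 205 were classed as the same, 25 as moved and 2 as reversed. The class of the same did not require the same sign or size. At the Glo1 promoter region the difference of -0.03 became -1.195 without WT library 3 and 1.21 without WT library 2. Both were classed as the same. The number of regions of the 4 genes lower in Pbrm1 cKO (18) was 10 of 14 with regions in both IDR lists, and 17 to 19 leaving out 1 library. Their median difference (-0.24) was -0.10 when ranked by fold, and -0.29 to -0.16 leaving out 1 library. The number with an adjusted p under 0.05 was 0 under every alternative. The number with an unadjusted p under 0.05 (9) was 3 ranked by fold, 5 with regions in both IDR lists, and 3 to 10 leaving out 1 library: 5 without WT library 1, 3 without WT library 2, 4 without Pbrm1 cKO library 1 and 3 without Pbrm1 cKO library 2. The 10 regions of the stretch without overlap became 5 ranked by fold and 6 of 6 with regions in both IDR lists, and leaving out a library cannot lower this number. The mean number of entries in the window (-7.67, Pbrm1 cKO minus WT) ran from -11.5 to -3.5 leaving out 1 library and turned to 16.3 at a −log10 q of at least 2. The relative background (-0.071) ran from -0.097 to -0.056 leaving out 1 library and turned to 0.0044 at that q. The cause of these moves was not tested, except that fewer regions are counted with both IDR lists. Ranking by tags, the unadjusted count and the stretch count were added after seeing the data. Of the 13 named regions, 9 kept their sign in all 11 alternatives each.

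With a replicate block, 6 regions of the 4 genes had an unadjusted p under 0.05 and 0 an adjusted one. Over all regions the adjusted calls rose from 45 to 131. They were 1552 with normal scores, 524 ranked by tags, 59 with summits in the region, 20 with entries in all 6 libraries, 12 with regions in both IDR lists, 4 ranked by fold, and 2 to 20 leaving out 1 library. Deviations of same-numbered libraries correlated at -0.003, -0.055 and 0.009, and those of other pairs at -0.077 to 0.087. With 3 libraries per group, such values cannot show whether the numbers pair the libraries.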
